A study of Mus musculus with 3 samples.

Results

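The cytosolic ribosomal protein genes were taken as every non-control probe whose gene symbol has the form Rpl or Rps with a number, or is Rplp0, Rplp1, Rplp2 or Rpsa, with pseudogenes left out. This gave 191 probes for 84 genes among 55681 non-control probes, of which 189 probes and 83 genes, 50 of the large and 33 of the small subunit, were bright enough to be tested among 23554 genes and other transcripts. Total RNA of mouse embryos at day E8.75 had been hybridised to 3 Agilent arrays with 2 colours each, numbered as pairs 1 to 3. On every array the RNA labelled wild-type was in the Cy3 channel and the RNA labelled Brpf1-deficient in the Cy5 channel. Brpf1 encodes a scaffold protein of histone acetyltransferase complexes. The labels give neither the Brpf1 allele, nor the strain, nor how many embryos went into each RNA, so p-values measure only the spread between these 3 pairs. The dyes were not swapped on any array, and dye and genotype cannot be told apart.

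Cytosolic ribosomes are built from ribosomal RNAs and a fixed set of proteins, most of them present once in each ribosome. The large subunit forms the peptide bond and the small subunit reads the messenger RNA. Mammalian ribosomal protein genes are highly transcribed, and their mRNAs open with a run of pyrimidines, the terminal oligopyrimidine (TOP) tract, through which the mTOR pathway and LARP1 regulate their translation together. In mouse embryos, mutations of single ribosomal protein genes are known for defects of the skeleton, of pigment cells and of red blood cells.

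Pyrimidine runs were searched around the annotated starts of these genes, and sequences around the annotated start are shown for some members with large and some with small ratios. RefSeq promoter entries of the GRCm38.p6 build, with 250 bases before and 50 from the start, were found for 63 of the 84 genes. A run that begins with C and goes on with at least 7 further C or T lay on the gene's strand within 50 bases of the annotated start in 52 of these 63 genes (82.5%), against 31.5% of all 27025 genes of that table. The windows of 30 bases below hold the run in capitals, with the coordinates and strand of the window.
Rpl41, chr10:128549119-128549148, minus strand: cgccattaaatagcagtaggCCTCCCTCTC
Rpl37a, chr1:72711275-72711304, plus strand: gcattgcgtCCCTTCCTCTTCggacttggg
Rpl14, chr9:120571501-120571530, plus strand: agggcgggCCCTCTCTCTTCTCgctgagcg
Rpl35, chr2:39005115-39005144, minus strand: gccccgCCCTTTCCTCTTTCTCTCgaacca
Rps6, chr4:86857349-86857378, minus strand: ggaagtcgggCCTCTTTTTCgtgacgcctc
Rps21, chr2:180257403-180257432, plus strand: gcacgagctaCTTCCTTTCTgcgctctcgc
Rpl4, chr9:64173361-64173390, plus strand: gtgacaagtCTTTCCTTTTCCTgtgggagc
Rpl39, chrX:37085198-37085227, minus strand: gcctctagcgaCTTCTTCTaatcgcgttct

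Counted from the annotated start as base 1, the run begins at base 41 in Rpl41, where it reaches the end of the table's sequence, at 25 in Rpl37a and at 7 in Rpl39. It begins upstream of the start by 8 bases in Rpl14, 7 in Rpl35, 1 in Rps6, 36 in Rps21 and 17 in Rpl4. A run away from the start is not shown to be the TOP tract, which opens the mRNA. Runs of this kind stood in genes with large ratios (Rpl41, Rpl37a, Rpl14, Rpl35 and Rps6) and in genes with small ones (Rps21, Rpl4 and Rpl39). Rps3, which also had a small ratio, has an entry without such a run. The letters CGGAAG, a core that ETS family factors recognise, were found on either strand of the 300 bases in 41 of the 63 genes (65.1%), against 18.8% of all genes. The letters TATAAA were found in 8 of 63 (12.7%), against 15.7% of all genes. Rpl41 and Rpl11 show the ETS letters close to the start, in capitals.
Rpl41, chr10:128549152-128549181, minus strand: cacgggccggctCGGAAGtgacgacaccga
Rpl11, chr4:136053369-136053398, minus strand: aggccacggggcCGGAAGtctccctctctc

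In these 63 genes the array ratio described below had a median of 0.88 in the 51 tested genes with a pyrimidine run and of 0.78 in the 11 without. For the ETS letters it was 0.91 in 41 genes and 0.67 in 21. After a loess curve that follows the brightest probes closely (span 0.02) these medians lay near each other, at 0.098 and 0.107 for the run and at 0.107 and 0.098 for the ETS letters. These are descriptions, and a match of letters is not a binding site.

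Most ribosomal protein genes had more Cy5 than Cy3 signal after within-array loess (span 0.3). Values are log2 ratios of Cy5, labelled Brpf1-deficient, over Cy3, labelled wild-type. The authors' deposited table runs the opposite way, so signs here are turned against it. The median over the 83 genes was 1.02 in pair 1, 0.76 in pair 2 and 0.85 in pair 3, against -0.02, -0.04 and -0.01 over all genes tested. The median of their mean ratios was 0.86, a 1.81-fold difference, and the middle 50% of genes lay between 0.62 and 1.07. In the limma fit 54 of the 83 genes were higher in Cy5 at an adjusted p under 0.05, 30 of the large and 24 of the small subunit, none was lower, and 29 did not pass. Over all genes tested, 1.29% were higher and 0.0934% lower. At an unadjusted p under 0.05, 76 of the 83 genes were called, against 17.3% of all genes. All 3 pairs lay above 0 in 77 of the 83 genes, against 19.7% of all genes.

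These calls depend on the number of pairs and on the normalization. None of the 83 genes was called by limma without pair 1, without pair 2 or without pair 3. The smallest adjusted p of the members were 0.200, 0.056 and 0.105. At an unadjusted p under 0.05 were 68, 78 and 71 members, against 2145, 3832 and 3408 of all 23554 genes. None was called with an intensity trend in the variance (smallest adjusted p 0.082) or after loess with a span of 0.02 (smallest adjusted p 0.273). With the trend, 76 members were at an unadjusted p under 0.05, against 3942 of all genes. In each of these settings none of all 23554 genes was called in either direction, so the absence of calls is not particular to the members. At span 0.02 the median ratio was 0.10, from pair values of 0.16, 0.04 and 0.08, and 26 of the 83 genes were at an unadjusted p under 0.05, against 14.9% of all genes. At that span 38 genes lay above 0 in all 3 pairs, against 20.2% of all genes, and 12 lay below 0 in all 3. The share of all genes below 0 in all 3 pairs was not computed. With the mean of all probes of a gene in place of the brightest, 30 genes were called (0.832% of all genes), while median centring of each array gave 71 (2.66%) and testing without a filter on dim probes 61 (0.998%).

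**Figure D1:**
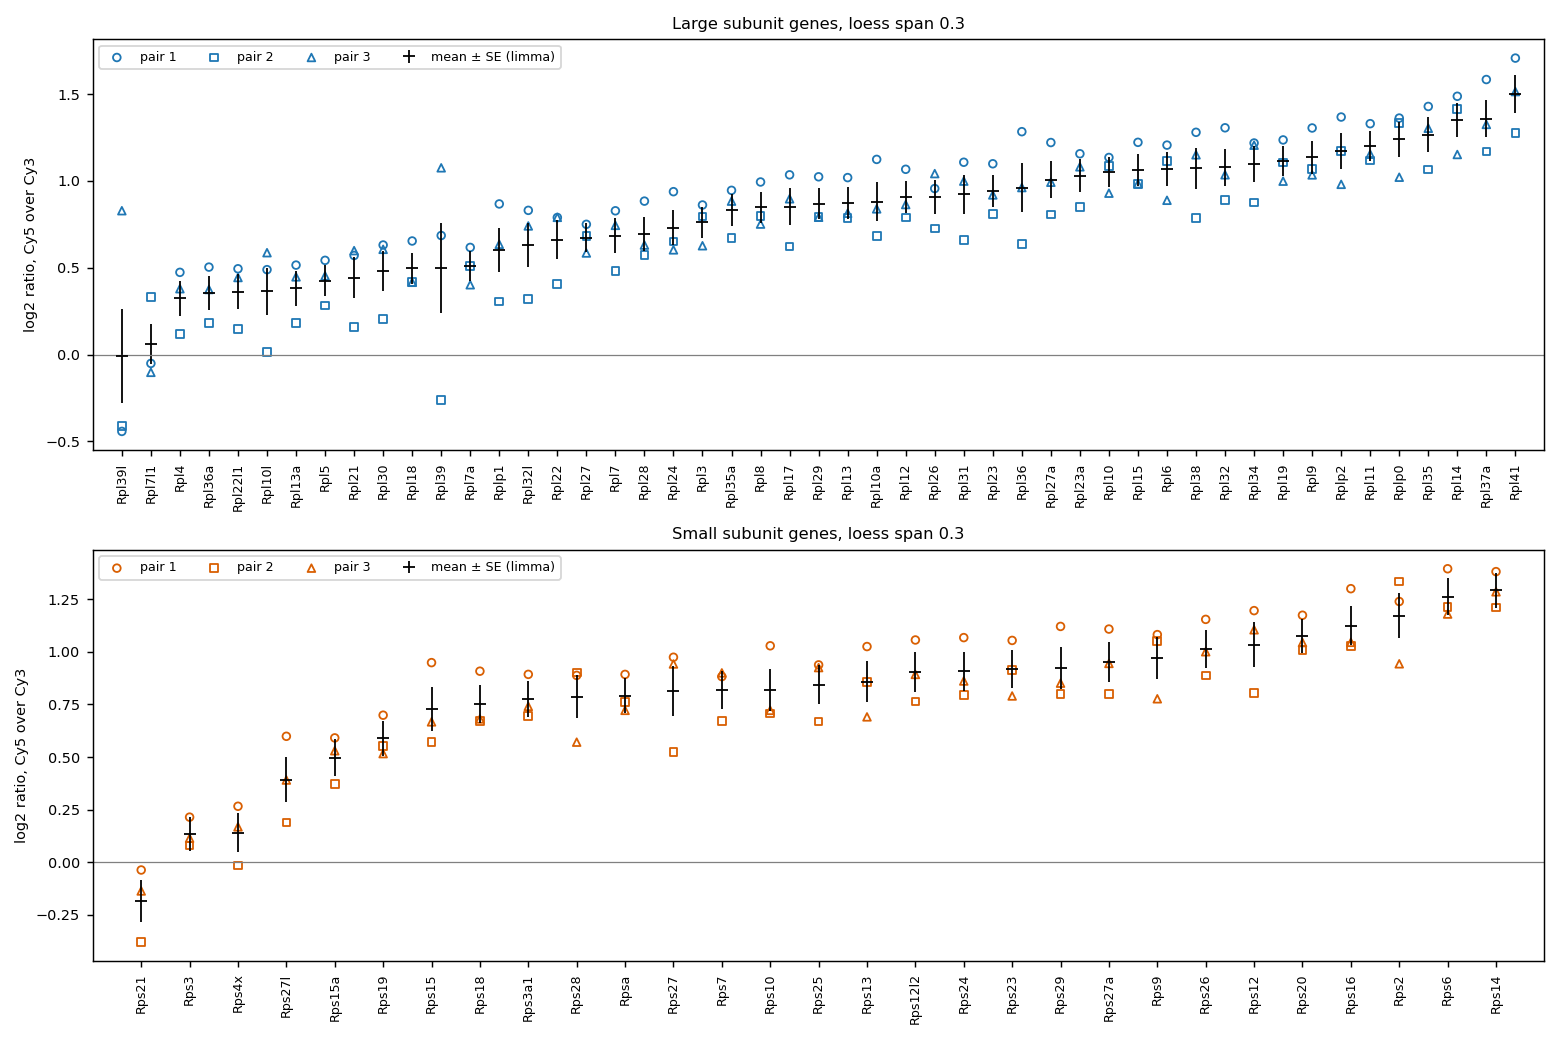
Log2 ratio of Cy5 over Cy3 (vertical axis) of the large and small subunit genes reported here, ordered by their mean; open symbols are the 3 pairs and black bars the mean with the moderated standard error. Rpl41 stands highest at 1.50 and Rps21 lowest at -0.18, and Rpl39 and Rpl39l have the widest spread between pairs.

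Brpf1, the gene that should check the labels, had ratios of 2.01, 1.43 and 1.06 in pairs 1 to 3. Its mean of 1.50 ± 0.19 (SE, n = 3; adjusted p = 0.0405) was thus higher in the channel labelled Brpf1-deficient, which goes against the label. Where the probe lies relative to the disrupted part of the gene was not analysed here. Every direction below is therefore one of channels as labelled.

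Markers of heart, neural tissue, somites and primitive red blood cells were detected, as a whole embryo of this stage would hold. All 3 arrays share 1 slide and 1 scan. The sums given here are of raw channel medians before normalization, in units of 1000, and the ratios are after loess. Sums of the 2 channels are therefore not on 1 scale and can differ in direction from the ratios. The heart markers (Myh6, Myl7 and Tnnt2, 3 of 3) summed to 101 to 173 in Cy3 and 171 to 210.4 in Cy5, with median ratios of -0.36, -0.45 and -0.36 in pairs 1 to 3. Of them Myh6, the heart muscle myosin, was lower in Cy5, at -0.72, -0.65 and -0.73 (adjusted p = 0.0313). The neural markers (Sox2, Pax6 and Sox1, 3 of 3) summed to 10.4 to 16.8 in Cy3 and 15.1 to 19.1 in Cy5, with median ratios of 0.14, 0.00 and -0.38. The somite markers (Meox1, Tbx6 and Tcf15, 3 of 3) summed to 14.4 to 20.1 in Cy3 and 23.4 to 31.2 in Cy5, with median ratios of 0.18, -0.02 and 0.08. Pair 1 was thus the highest for the neural and somite lists, as it was in 71 of the 83 ribosomal protein genes. The 4 yolk sac markers measured (Afp, Apoa1, Apob and Ttr, 4 of 4) had summed intensities of 176 to 240.1 in Cy3 and 464 to 772 in Cy5 and median ratios of 0.04, 0.56 and 0.78 in pairs 1 to 3. The primitive red blood cell markers (Hbb-bh1, Hba-x and Hbb-y, 3 of 3) summed to 183 to 504 in Cy3 and 735 to 1429 in Cy5, with median ratios of -0.04, 1.08 and 1.42. Hbb-bh1, an embryonic globin, was higher in Cy5 (1.28, adjusted p = 0.0419). All 3 globin probes were above 17 in brightness, and the list's median turned from 0.55 to -0.34 at span 0.02 and to -0.15 with processed signals. The list set for decidua (Prl8a2, Dcn and Hand2, 3 of 3) summed to 19.8 to 46.6 in Cy3 and 14.3 to 48.9 in Cy5, with median ratios of -0.74, -0.63 and 0.43. Its genes differed: Prl8a2 had -0.74, -3.55 and 0.60, Dcn -1.05, -0.36 and 0.43, and Hand2 -0.12, -0.63 and 0.40. The mean of Prl8a2, -1.23, did not pass in the limma fit (adjusted p = 0.45). Whether the Dcn and Hand2 signal came from decidua or from the embryo was not tested. Of the 3 trophoblast markers, Prl3d1 alone was above the filter, at 0.66 to 3.60 in Cy3 and 0.98 to 5.47 in Cy5, with ratios from -1.19 in pair 1 to 2.35 in pair 3. Pair 3 had the highest median ratio for the yolk sac, red blood cell, decidual and trophoblast markers. The part of these tissues in the ribosomal protein ratios was not tested. In bulk RNA, fewer cells of a type and less RNA per cell cannot be told apart.

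The ratio followed the brightness of the probe. Of the 83 genes, 70 had a mean log2 intensity of both channels above 17, 8 lay between 16 and 17, and 5 lay under 16. Only 544 of all genes tested were above 17, so ribosomal protein genes made up 12.9% of that class. All 54 called members were in it, where 51.5% of all genes were called higher. The members above 17 had a median ratio of 0.91, with 54 of 70 called (77.1%), and the other 474 genes of the class had a median of 0.71, with 226 called (47.7%).

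Within narrower brightness classes the members and the other genes lay closer together. From 17 to 17.25 the medians were 0.59 for 13 members and 0.51 for 224 other genes. From 17.25 to 17.5 they were 0.92 for 46 members and 0.83 for 205 others, and above 17.5 they were 1.01 for 11 members and 0.99 for 45 others. From 16.5 to 17 they were 0.37 for 8 members and 0.22 for 367 others. Members were thus above the other genes of their class by 0.02 to 0.15, while the steps between classes were up to 0.33. These differences were not tested. In each of these classes most of the other genes carried no gene name, so they can hold ribosomal protein transcripts. The other genes are therefore not a clean comparison group, here or for the shares called above 17.

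Over the 78 members above 16, the correlation of the mean ratio with log2 intensity was 0.694 at span 0.3 and 0.057 at span 0.02. The points share arrays, dyes and normalization, and the ratio and the intensity are made from the same 2 signals. A loess of narrow span removes the dependence of the ratio on intensity by its fit, and the members are among the bright probes fitted. The low correlation at span 0.02 thus follows from the method. A difference shared by the brightest genes would be removed as well.

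**Figure D2:**
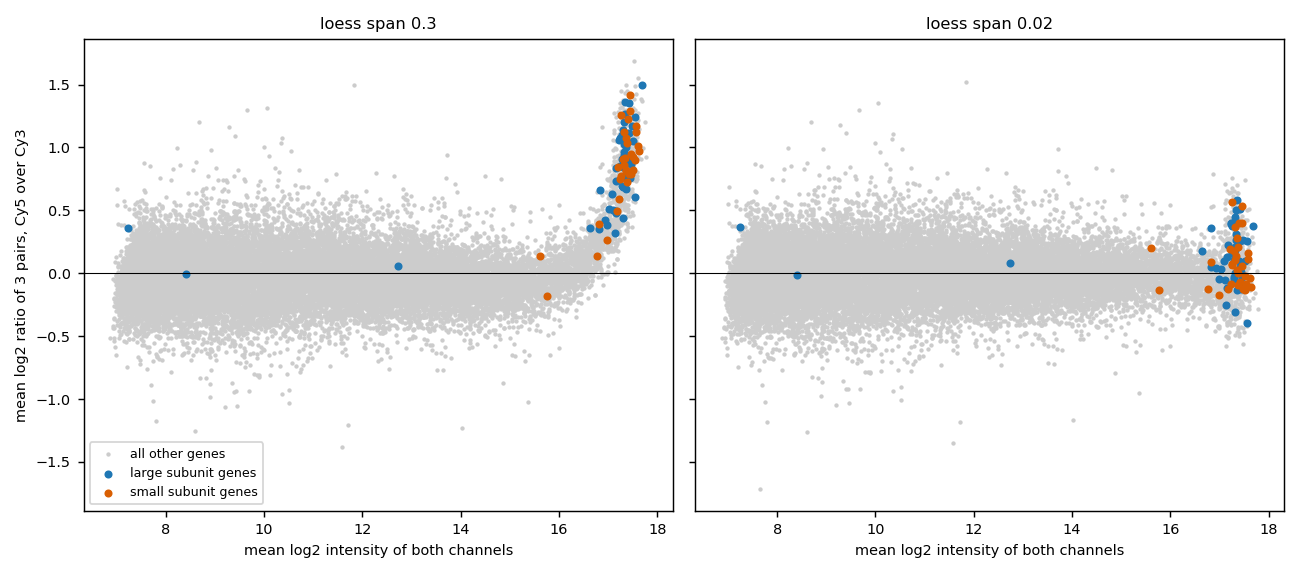
Mean log2 ratio of 3 pairs (vertical axis) against the mean log2 intensity of both channels (horizontal axis) for all genes tested (grey) and for large (blue) and small (orange) subunit genes, with loess spans of 0.3 (left) and 0.02 (right). With the wide span the ratios of all genes climb above an intensity of about 17, where 70 of the 83 ribosomal protein genes lie; with the narrow span the members have a median of 0.10.

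The raw medians of the channels behind these ratios differed in their range. In pair 1 the Cy3 intensity of the brightest probe of the 78 members above 16 ran from 48969 to 76914.5, a range of 1.57-fold. The Cy5 intensity of the same probes ran from 179445 to 558242, a range of 3.11-fold. The ranges were 1.75-fold in Cy3 and 3.57-fold in Cy5 in pair 2, and 1.71-fold and 3.28-fold in pair 3. The files mark no spot as saturated on any array, and the brightest member spot reached 588509 in Cy5 (Rpl41, pair 3), where the file headers give a saturation level of 778337. Member probes held 4.55%, 5.63% and 5.63% of the Cy3 signal of all non-control probes in pairs 1 to 3, and 8.47%, 9.10% and 9.30% of the Cy5 signal.

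**Figure D3:**
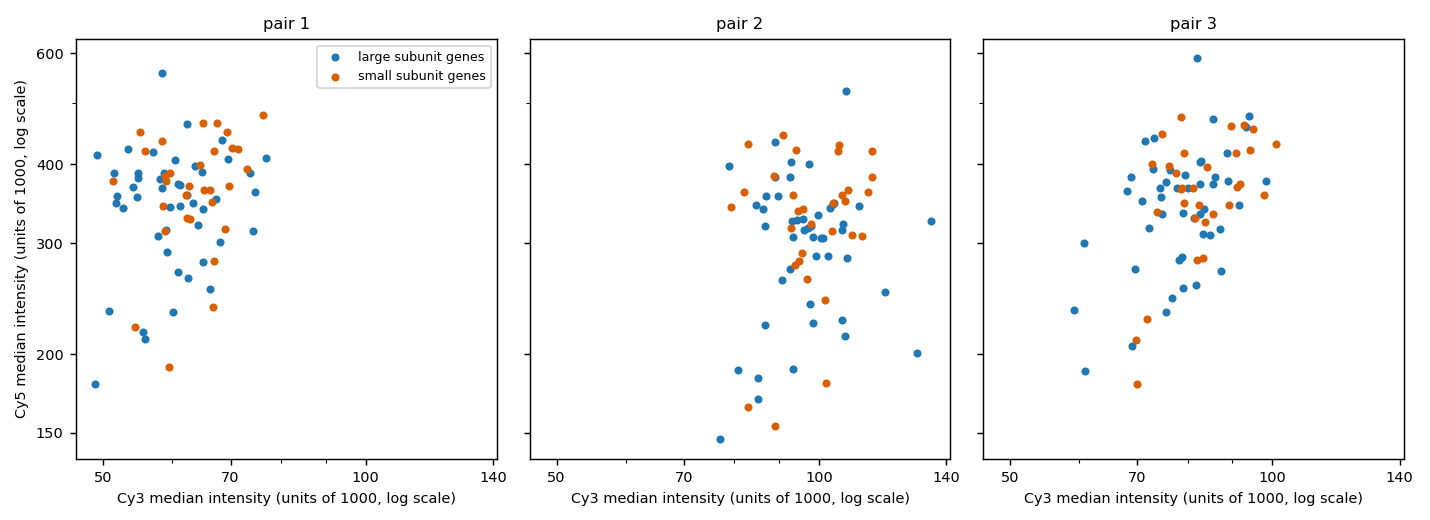
Median Cy5 intensity (vertical, log scale) against median Cy3 intensity (horizontal, log scale), both in units of 1000 and before normalization, of the 78 ribosomal protein genes above a mean log2 intensity of 16, one panel per pair, with large subunit genes in blue and small in orange. The points spread over 1.57-fold in Cy3 and 3.11-fold in Cy5 in pair 1.

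Probes of the same gene at different brightness gave different ratios. All 134 member probes above 17 had a mean ratio above 0, with a median of 0.83, and 67 of them were higher in the limma fit over probes, where 0.788% of 31598 probes were. The 27 probes from 16 to 17 had a median of 0.24 and the 28 probes under 16 a median of 0.003, with 14 of the 28 above 0. None of these 55 dimmer probes was called. In 19 genes a probe above 17 stood beside one under 16, and in 19 of 19 the dimmest probe had the lower ratio. The median was 0.85 for the brightest and 0.02 for the dimmest probe. At span 0.02 these medians were 0.097 and 0.095. The narrow span fits bright and dim probes each to their own level, so their closeness there follows in part from the method.

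In 8 genes the probes lay more than 1 apart on the log2 scale, among them Rpl14, Rps6, Rpl27a, Rps3a1, Rpl17, Rps24 and Rpl15, and in 15 genes they lay on both sides of 0. Rpl14, a large subunit protein, had the widest range, from 1.49, 1.41 and 1.15 in pairs 1 to 3 on its brightest probe to -0.05, -0.28 and -0.33 on its dimmest. The middle one of its 3 probes gave 0.79, 0.53 and 0.53. Rps6, the small subunit protein phosphorylated by the S6 kinases, had 1.39, 1.21 and 1.18 on its brightest probe and 0.00, 0.11 and -0.05 on its dimmest. A probe of Rps6 as bright as the first (17.23 against 17.26) had 0.66, 0.40 and 0.37, so probes of Rps6 differed at the same brightness too.

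Rpl17 had the most probes, 7, with mean ratios from -0.26 to 0.85. Its 3 probes above 17 had mean ratios of 0.61, 0.54 and 0.85, and its 4 dimmer ones -0.26, -0.11, 0.01 and 0.04. Among probes above 17 alone, 49 genes had several, and the median range within a gene was 0.21. Rps16 had the widest such range, 0.93, with mean ratios of 1.36 and 1.12 on its brighter probes and 0.43 on the other. Rplp0 followed, with 1.24 on its brightest probe and 0.46 and 0.37 on the others. Ribosomal protein genes have many near-identical retrocopies in the mouse genome, so which transcripts a probe reads is uncertain for every member.

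**Figure D4:**
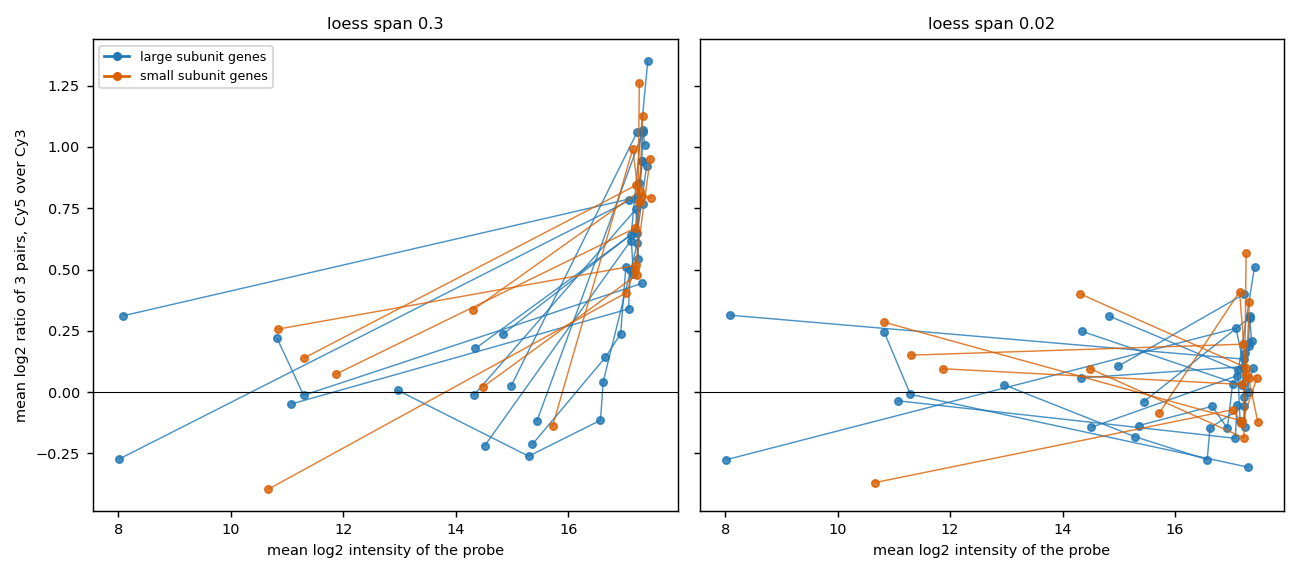
Mean log2 ratio of 3 pairs (vertical axis) against mean log2 intensity (horizontal axis) for every probe of the 19 genes with a probe above 17 and another under 16; lines join the probes of a gene, large subunit in blue and small in orange, with loess spans of 0.3 (left) and 0.02 (right). The medians of the brightest and dimmest probes are 0.85 and 0.02 on the left and 0.097 and 0.095 on the right.

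The medians of the subunits lay close together. The median over large subunit genes was 1.01, 0.68 and 0.85 in pairs 1 to 3, and over small subunit genes 1.03, 0.79 and 0.85. Large minus small was -0.02, -0.11 and 0.00 in the pairs, and 0.003 for the medians of the mean ratios (0.861 and 0.858). The share called was 60.0% of large and 72.7% of small subunit genes. With the mean of all probes of a gene in place of the brightest, the difference was -0.14, and at span 0.02 it was 0.06. Members are not replicates and the difference was not tested.

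Large ratios were measured for Rpl41, Rpl37a, Rpl14, Rps14 and Rpl35. Rpl41, the smallest ribosomal protein, which sits between the subunits, had 1.71, 1.28 and 1.51 in pairs 1 to 3. Its mean was 1.50 ± 0.11 (SE, n = 3; adjusted p = 0.0232), a 2.83-fold difference, and 0.38 at span 0.02. Rpl37a, a zinc-binding protein of the large subunit, had 1.58, 1.17 and 1.33, and Rps14, a protein of the small subunit's platform, had 1.38, 1.21 and 1.29. Rpl35, which lies near the exit of the peptide tunnel, had 1.43, 1.07 and 1.30. Each of these genes lay above the median member in every pair. Of the 10 genes with the largest means, 9, 7 and 8 were also among the 10 largest of pairs 1, 2 and 3. Each pair is part of the mean by which these genes were picked, so this overlap follows in part from the choice.

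The smallest ratios came mostly from dim probes or from the lower edge of the bright range. Rps21, the lowest of the 83 genes, had -0.04, -0.38 and -0.14, with a mean of -0.18 ± 0.10 (adjusted p = 0.39) on its only probe, of brightness 15.77. Rps3, which lines the mRNA entry channel of the small subunit, had 0.21, 0.08 and 0.11, and a brighter probe named in the authors' table but without a RefSeq name had 0.32, 0.23 and 0.22. Both Rps21 and Rps3 missed the threshold, and pair 2 was the lowest in each of them. Rpl4, at a brightness of 17.14, had 0.47, 0.12 and 0.38, and Rpl21, at 17.31, had 0.57, 0.16 and 0.60. Rpl21 was thus low among genes of its own brightness, and at span 0.02 its mean was -0.31.

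With the narrow span the order of the bright genes changed in part. Among the highest means at span 0.02 were those of Rpl37a (0.58), Rps6 (0.57), Rpl14 (0.51) and Rpl35 (0.50), and the lowest were those of Rplp1 (-0.39), Rpl21 (-0.31) and Rpl4 (-0.26). None of the 83 genes passed the threshold at that span, and none of all 23554 genes did. Rpl37a had 0.80, 0.39 and 0.56 and Rplp1 had -0.28, -0.67 and -0.24. The between-pair correlations of the 78 members above 16 were 0.899 (pairs 1 and 2), 0.911 (1 and 3) and 0.731 (2 and 3) at span 0.3, and 0.694, 0.805 and 0.365 at span 0.02. Pairs share the dye orientation, the slide and the probes, which these correlations also hold.

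Rpl5 and Rpl11 form a particle with the smallest ribosomal RNA of the large subunit and, when unassembled, bind Mdm2, the inhibitor of p53. Rpl5 had 0.54, 0.28 and 0.45, with a mean of 0.43 ± 0.09 (adjusted p = 0.14), at a brightness of 16.93. Rpl11 had 1.33, 1.12 and 1.15, with a mean of 1.20 ± 0.09 (adjusted p = 0.0232), at 17.32. The other probes of Rpl11, both at a brightness of 17.03, had 0.73, 0.40 and 0.70 and 0.94, 0.61 and 0.76, closer to Rpl5, so the size of the difference between the partners rests on the probe. At span 0.02 Rpl5 had a mean of 0.04 and Rpl11 of 0.45.

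The stalk that recruits the elongation factors is built from Rplp0, Rplp1 and Rplp2. Rplp0 had 1.36, 1.33 and 1.02 and Rplp2 had 1.37, 1.17 and 0.98, both past the threshold (adjusted p = 0.0232 and 0.0255). Rplp1 had 0.87, 0.31 and 0.63 on its brightest probe, which missed it (adjusted p = 0.14), and 1.34, 0.74 and 1.08 on its second. On its second probe Rplp1 thus lay nearer to Rplp0 and Rplp2.

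Several members are known for mouse mutants with embryonic phenotypes. Rpl38, whose loss causes the skeletal defects of Tail-short mice, had 1.28, 0.79 and 1.15, with a mean of 1.07 ± 0.12 (adjusted p = 0.0317). Rpl24, mutated in Belly spot and tail mice, had 0.94, 0.65 and 0.60 and did not pass (adjusted p = 0.0518). Rpl27a, mutated in a mouse with ataxia and pigmented feet, had 1.22, 0.81 and 0.99 on its brightest probe (adjusted p = 0.0295), and -0.13, -0.06 and -0.16 on its dimmest. Rps19 and Rps20, both mutated in dark skin mice, had 0.70, 0.55 and 0.52 (adjusted p = 0.0575) and 1.17, 1.01 and 1.04 (adjusted p = 0.0232). Rps7, mutated in mice with skeletal and eye defects, had 0.88, 0.67 and 0.90 (adjusted p = 0.0305). All pairs of these 6 genes were above 0 on their brightest probe, and 4 of the 6 passed. All 6 were above 17 in brightness, where 51.5% of all genes were called higher.

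Of the 4 X-linked members, 1 passed, where 1.29% of all genes and 51.5% of those above 17 were called higher. Rpl10, among the last proteins to join the large subunit, had 1.13, 1.08 and 0.93, with a mean of 1.05 ± 0.09 (adjusted p = 0.0232). Rpl36a had 0.50, 0.18 and 0.37, and Rps4x had 0.27, -0.02 and 0.17, with 0.57, 0.16 and 0.47 on a brighter probe named in the authors' table but without a RefSeq name. Neither of them passed. Their brightness, 16.82 for Rpl36a and 16.77 for Rps4x, was under that of Rpl10, at 17.51.

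Rpl39, which lines the peptide exit tunnel and is the last X-linked member, differed most between pairs among the bright members. Its brightest probe had 0.69, -0.26 and 1.08, so pair 2 lay on the other side of 0. The second probe had 0.50, -0.36 and 0.88, and the third, dim probe had 0.01, -0.54 and 0.38. The order of the pairs was thus the same on all 3 probes, and at span 0.02 the brightest gave 0.08, -0.85 and 0.62. Its mean of 0.50 ± 0.26 did not pass (adjusted p = 0.38). The standard deviation over pairs was 0.69, where the median member had 0.16, and 4 of the 544 genes above 17 had a larger one.

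**Figure D5:**
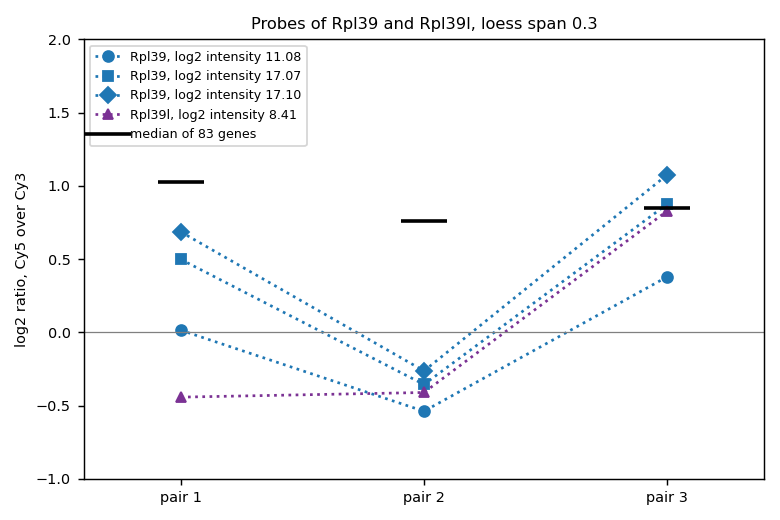
Log2 ratio of Cy5 over Cy3 (vertical axis) in pairs 1 to 3 for the 3 probes of Rpl39 (blue) and the probe of its paralogue Rpl39l (purple), with the median of the 83 genes as black bars; dotted lines join the values of a probe. All 3 Rpl39 probes are lowest in pair 2 and highest in pair 3.

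The 6 paralogues described here had mostly dim probes, and none of those tested passed the threshold. Rps12l2 and Rpl32l, which also have l in their symbols, were not among the paralogues chosen and were bright. Rps12l2, at 17.55, had 1.06, 0.76 and 0.89 and passed (adjusted p = 0.0282), where 51.5% of all genes above 17 were called higher. Rpl32l, at 17.08, had 0.83, 0.32 and 0.74 and did not pass (adjusted p = 0.13). Rpl39l, the paralogue of Rpl39 known for its use in male germ cells, had -0.44, -0.41 and 0.83, with a mean of -0.01 ± 0.27 (adjusted p = 0.99), at a brightness of 8.41. Rpl10l, the testis paralogue of Rpl10, was not well above background in Cy3 on any array. Its ratios were 0.49, 0.01 and 0.59. The fitted fold was 1.29, higher in Cy5, and did not pass (adjusted p = 0.27). A bound with Cy3 set no lower than the lowest signal of probes well above background had the same value. The probe's own Cy3 signal lay above that level, so the bound gives no lower limit beyond the fitted fold. The second probe of Rpl10l was left out of the test, at 0.72, 0.36 and 1.25. Rpl3l, the muscle paralogue of Rpl3, was not well above background in either channel on any array, while Rpl3 had 0.86, 0.80 and 0.63 (adjusted p = 0.0334). Rpl3l was the only member gene that could not be tested.

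Rpl22l1 had 0.49, 0.15 and 0.44, and its parent Rpl22 had 0.79, 0.41 and 0.79. Rps27l, a target of p53, had 0.60, 0.19 and 0.39, and Rps27, its parent, had 0.97, 0.52 and 0.94. Rpl7l1 had -0.05, 0.33 and -0.10, while Rpl7, its parent, had 0.83, 0.48 and 0.74. None of these 6 genes passed, and each parent's probe was brighter than its paralogue's. Rps4l, a transcribed pseudogene, was left out, and Rpl37 has no probe among those named here.

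Other genes of the translation machinery were set beside the members. Of the ribosomal proteins outside the naming rule, 3 of 4 were higher, where 1.29% of all genes were. Among them were Rack1 (1.25, 1.09 and 0.91), a signalling scaffold on the small subunit, and the ubiquitin-like fusion Fau (1.13, 0.81 and 0.66). The 3 probes called were above 17 in brightness, where 51.5% of all genes were called higher. Rpl36al, at 16.10, had 0.07, -0.19 and -0.02. The list's median was 0.96, and 0.14 at span 0.02.

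Of the translation factors whose mRNAs also carry the TOP tract, 4 of 18 were higher, where 1.29% of all genes were. The list's median was 0.21, and it turned to -0.02 at span 0.02 and to -0.10 with processed signals. The called genes were Tpt1 (1.35, 1.05 and 1.28), the growth-related protein TCTP, Pabpc1 (1.09, 0.85 and 0.83), which binds poly(A) tails, and the elongation factors Eef1b2 (0.86, 0.71 and 0.69) and Eef2 (0.99, 0.58 and 0.85). All 4 were above 17, where 5 of the 18 genes lay. Eef1a1, the other one, had 0.84, 0.58 and 0.48 and missed the threshold (adjusted p = 0.0766).

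Genes that make ribosomes had ratios near 0 as a list. In the ribosome biogenesis list 1 of 35 genes was higher, with a list median of 0.00. That gene was Npm1, the nucleolar protein nucleophosmin, at 0.78, 0.65 and 0.56 (adjusted p = 0.0440) and with a mean of -0.22 at span 0.02. Npm1 and Ncl (0.52, 0.88 and 0.03), a nucleolar RNA-binding protein, were the 2 genes of that list above 17. No gene passed among 20 of RNA polymerase I and its factors (median -0.08, with 1 gene at an unadjusted p under 0.05), 26 initiation factors (0.02, with 2) or 77 mitochondrial ribosomal proteins (-0.03, with 3). The mitochondrial list, whose proteins build the separate ribosome of that organelle, held no gene above 17. Across all genes, 1.38% passed in either direction.

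In the authors' deposited table, which lists 179 of the 191 member probes, 167 had a log2 ratio above 0 once turned to Cy5 over Cy3, with a median of 0.72. None of them had an adjusted p under 0.05 in the authors' deposited table, and the smallest was 0.264. That was also the smallest over all 39915 probes that the deposited table shares with the arrays, so none of those passed either. The share of all probes above 0 was not computed.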

How the data were processed

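Median spot intensity and its local background, on a linear scale, were read from the deposited array files, made with Feature Extraction 10.7.3.1 per the file headers. Processed intensity values in those files are background-subtracted and dye-normalized, per the file headers. The authors' deposited table gives per probe a log2 ratio, an unadjusted and adjusted p-value, and as scores the log odds and a moderated t. limma is named without a version per the submitters' processing notes, and other settings of the table are not stated. Its ratio correlates at -0.802 with the one computed here over 39915 probes.

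Background was corrected with normexp (offset 50) and ratios by within-array loess (span 0.3) in which controls and outliers had weight 0. No pseudocount was added. Replicate spots were averaged, and probes were tested if at least 0.5 of their spots were well above background in 1 channel on at least 2 arrays (31598 of 55681). The brightest RefSeq-named probe stood for a gene; 171 member probes were named by RefSeq (GRCm38.p6) and 20 by the authors' table alone, used where a gene had no other. limma 3.58.1 in R 4.3.3 (lmFit and eBayes, intercept only, two-sided) tested the mean of 3 pairs against 0, with Benjamini-Hochberg adjustment over 23554 genes, or over 31598 probes, and a threshold of 0.05. The fit was tested on simulated data. The number of arrays, 3, limits the precision.

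The members, the gene lists and the rule for named genes were chosen with earlier results of these data known. Named were the largest and smallest 6 ratios, the particle of Rpl5 and Rpl11, the stalk, paralogues with their parents, genes of mouse mutants, X-linked genes, genes with probes over 1 apart, and in each other list the genes past the threshold and up to 4 by smallest p. Rpl21 and the genes extreme at span 0.02 were chosen after their values were seen. Some genes that the rule names are not reported here.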

Additional observations from a re-analysis of the deposited data

How the results depend on the processing

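The count of 54 genes higher in Cy5 became 0 at a loess span of 0.02, at a span of 0.1, with the scanner software's processed signals and with an intensity trend, and 30 with the mean of all probes of a gene (0.832% of all genes). It was 54 without background correction, 71 with median centring of each array (2.66% of all genes) and 61 without a filter on dim probes (0.998%). Leaving out saturated probes also gave 54, but no spot was saturated, so that setting removed nothing and tests nothing. Leaving out 1 pair gave 0 in each case (range 0 to 0). In every setting with a count of 0, none of all 23554 genes was called in either direction. None of the ribosomal protein genes was called lower in any of these settings. The median of 0.86 moved to 0.10 at span 0.02, 0.40 at span 0.1, 0.28 with processed signals, 1.42 with median centring and 0.64 with the mean of all probes, and lay between 0.79 and 0.92 without 1 pair. Large minus small subunit moved to 0.064 at span 0.02 and to -0.14 with the mean of all probes, and lay between -0.05 and -0.01 without 1 pair.

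Ribosomal protein genes above 0 went from 81 to 57 of 83 at span 0.02, as 24 turned. Among the genes chosen by the naming rule and reported here, the only ones given singly in this paragraph, the sign turned at span 0.02 for Rpl3 (-0.13), Rpl39 (-0.051), Rpl7 (-0.048), Rplp1 (-0.39), Rps19 (-0.085), Rps4x (-0.13) and Npm1 (-0.22). At span 0.1 it turned for Rps4x (-0.17). With processed signals it turned for Rpl22l1 (-0.012), Rpl36a (-0.047), Rpl39l (0.028), Rpl5 (-0.055), Rplp1 (-0.10), Rps4x (-0.25) and Npm1 (-0.039). Rpl39l was 0.0089 without background correction, and Rpl7l1 was -0.028 and Rps21 0.12 with median centring. Without 1 pair, Rpl39l lay between -0.43 and 0.21 and Rpl7l1 between -0.077 and 0.14. The cause was not tested. Over all settings, 298 values of single genes kept their side of the threshold and their sign, 198 fell short of it, 11 came to pass it and 21 turned. Of the 298, 44 belong to the setting without saturated probes, which could not differ.

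No paired analysis was possible because the arrays form 1 group, beyond the pairing of both RNAs within an array that each ratio already holds. Dye cannot be told apart from genotype in any setting. Dim probes limit Rpl3l, Rpl10l and Rpl39l.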
